A study of Homo sapiens with 12 samples.

Results

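Tumour necrosis factor alpha (TNFα) was tested here as 1 factor of a design with 2 factors, by setting the 6 arrays from cultures that received it against the 6 arrays from cultures that did not. All 12 arrays of the series entered the comparison. The 6 with TNFα were the 3 TNF+IL1 arrays (TNFα at 5 ng/ml and interleukin 1 beta, IL1β, at 1 ng/ml) and the 3 TNF arrays (TNFα alone at the same dose). The 6 without it were the 3 IL1 arrays (IL1β alone) and the 3 vehicle arrays. The comparison asks which transcripts of an endometrial stromal cell change with TNFα, averaged over the presence and the absence of IL1β. Every array came from T-HESC, a human endometrial stromal cell line immortalised with telomerase, kept 24 h without serum and then treated for 48 h. Each group held 1 array from each of passages 13, 15 and 28 of this line, so the replicates are passages of 1 line and not donors. The p-values measure the spread of these arrays around the fitted model, and not a spread between donors. The arrays were single-colour CodeLink whole-genome arrays, whose number limits the precision, and values are log2 intensities, given for a group in the order of passages 13, 15 and 28. Effects are log2 differences ± SE from an additive model with TNFα and IL1β as factors (limma), with p-values adjusted over all probes.

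TNFα binds the receptors TNFR1 and TNFR2. Adaptors and kinases that gather at the receptor release NF-kB from its inhibitors and start the JNK and p38 kinases, and NF-kB then switches on chemokines, cytokines, adhesion molecules and its own inhibitors. IL1β uses another receptor and other adaptors but reaches NF-kB too. TNFα can also bring about interferon and IRF signalling in slower steps. In the endometrium both cytokines come from leukocytes, epithelium and stroma, and they are studied in menstruation, implantation and endometriosis.

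Of 53671 probes tested, 23194 were listed with 1 gene, for 18106 genes, each represented by its brightest probe. A group of 3 arrays lay apart on the first principal component (22.6% of the variance): the vehicle array of passage 15 at 171, the TNF array of passage 15 at 68.7 and the IL1 array of passage 28 at 53, with the vehicle array of passage 13 at −84.8 and the other 8 between −33.8 and −18.2. The called genes and leading lists are therefore also given without the first 3, after the other results. All 13 measured stromal markers lay above the array median, against 5 of 16 leukocyte, 7 of 11 epithelial and 2 of 10 endothelial markers. Their summed linear intensities overlapped between arrays with and without TNFα (leukocyte 19.8 to 23.1 against 19.2 to 22.3, epithelial 56.3 to 130 against 42.7 to 151, endothelial 18.6 to 22.7 against 16.6 to 24.3), and 0 of these markers passed the test. TNFα effects of GAPDH, ACTB and TERT were −0.11 ± 0.11, −0.02 ± 0.22 and 0.09 ± 0.23 on the log2 scale.

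TNFα changed 31 probes at an adjusted p under 0.05, or 0.0578% of those tested, of which 26 were higher (0.0484%) and 5 lower (0.00932%). Of these probes 19 each represent a gene, or 0.105% of genes, 16 higher (0.0884%) and 3 lower (0.0166%) with TNFα. At an unadjusted p under 0.05 there were 4096 probes (7.63%) and 1302 genes (7.19%). CCL5, a chemokine for T cells and monocytes, had the largest rise. Antiviral genes that interferon is known to induce (BST2, IFI27, MX1, EPSTI1), the immune ligands EBI3 and TNFSF13B and the NF-kB inhibitor TNIP3 rose with it. The imprinted gene MEST, the retinoic acid carrier CRABP2 and the cardiac actin ACTC1 fell. In all 19 genes the arrays with TNFα lay apart from those without it both in the presence and in the absence of IL1β, and in 14 all 6 lay apart from all 6. Among all genes, 1.33% lay apart in this way within both levels of IL1β on the higher side and 0.635% on the lower side, and 0.619% and 0.166% with all 6 apart from all 6. The 19 were called on these same arrays, which in part sets their lack of overlap. Of the called genes 3 (UBD, ALKAL2 and ICAM2) averaged below the array median. Of the other called probes 9 carry no single gene and are unnamed, and 3 are second probes of ABI3BP, IFI27 and HSD11B1. The brightest probe of HSD11B1, which represents it, was not called, so HSD11B1 is not among the 19. In cultures measured as bulk RNA, more cells that express a gene and more RNA per cell cannot be told apart.

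**Figure D1:**
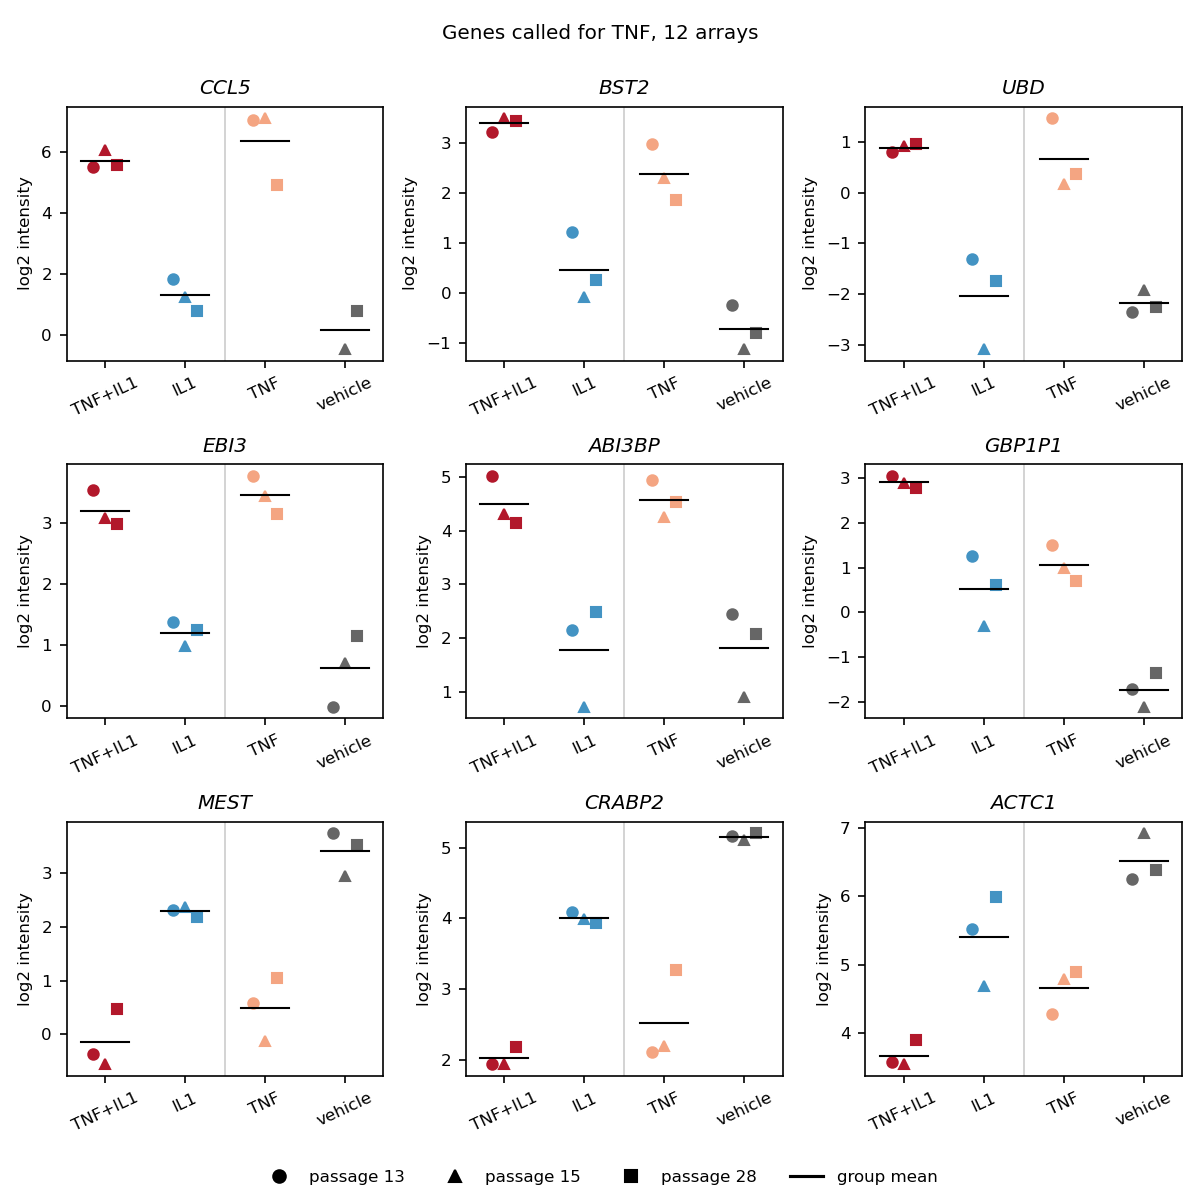
Log2 intensity (y axis) of 9 of the 19 called genes on each of the 12 arrays, by group (x axis), with TNF+IL1 beside IL1 and TNF beside vehicle; marker shapes are passages and bars are group means. In each panel the 3 arrays with TNFα lie wholly on 1 side of the 3 arrays they are paired with, which calling the genes on these arrays in part sets. CCL5 has no value on 1 vehicle array.

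Promoter sequence is shown for 6 of the genes that rose, since NF-kB and the interferon regulatory factors are the factors through which TNFα and interferon are known to act. The windows run from 250 bases before to 50 after the RefSeq start site on GRCh38.p14, in the direction of the gene. Capitals mark matches, on either strand, to the kB motif of NF-kB or to GAAA-NN-GAAA (N is any base), the core that interferon regulatory factors read. These 6 were taken because they hold a match, so their matches are no count.
BST2, chr19:17405581-17405880, minus strand: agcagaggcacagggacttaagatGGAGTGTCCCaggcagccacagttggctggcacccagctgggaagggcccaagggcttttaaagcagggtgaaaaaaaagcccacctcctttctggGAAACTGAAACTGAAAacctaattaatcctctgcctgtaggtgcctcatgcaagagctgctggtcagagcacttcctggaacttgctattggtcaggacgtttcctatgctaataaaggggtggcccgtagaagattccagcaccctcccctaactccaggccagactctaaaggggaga
UBD, chr6:29559683-29559982, minus strand: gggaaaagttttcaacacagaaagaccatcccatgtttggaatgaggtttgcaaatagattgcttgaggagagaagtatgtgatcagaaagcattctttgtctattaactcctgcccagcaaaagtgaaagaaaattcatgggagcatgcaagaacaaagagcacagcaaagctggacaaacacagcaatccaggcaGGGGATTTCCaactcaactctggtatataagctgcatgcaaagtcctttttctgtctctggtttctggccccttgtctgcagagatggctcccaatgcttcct
IFI27, chr14:94110486-94110785, plus strand: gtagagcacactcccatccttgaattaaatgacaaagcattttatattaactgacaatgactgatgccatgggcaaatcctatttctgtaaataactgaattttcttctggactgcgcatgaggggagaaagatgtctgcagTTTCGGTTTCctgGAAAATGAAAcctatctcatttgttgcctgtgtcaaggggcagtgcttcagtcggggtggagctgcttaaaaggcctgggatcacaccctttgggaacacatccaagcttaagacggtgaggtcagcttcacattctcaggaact
EBI3, chr19:4229273-4229572, plus strand: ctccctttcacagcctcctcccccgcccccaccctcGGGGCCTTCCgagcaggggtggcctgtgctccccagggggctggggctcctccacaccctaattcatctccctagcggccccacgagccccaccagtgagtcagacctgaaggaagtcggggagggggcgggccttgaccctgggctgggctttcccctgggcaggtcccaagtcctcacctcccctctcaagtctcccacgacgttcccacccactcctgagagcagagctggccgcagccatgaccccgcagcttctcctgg
TNIP3, chr4:121227434-121227733, minus strand: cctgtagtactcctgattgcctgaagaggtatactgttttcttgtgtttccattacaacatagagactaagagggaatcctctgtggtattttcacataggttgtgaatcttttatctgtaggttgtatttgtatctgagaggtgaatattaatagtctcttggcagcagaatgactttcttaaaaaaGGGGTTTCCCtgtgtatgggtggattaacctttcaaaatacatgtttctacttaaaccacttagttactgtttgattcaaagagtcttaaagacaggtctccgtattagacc
TNFSF13B, chr13:108269379-108269678, plus strand: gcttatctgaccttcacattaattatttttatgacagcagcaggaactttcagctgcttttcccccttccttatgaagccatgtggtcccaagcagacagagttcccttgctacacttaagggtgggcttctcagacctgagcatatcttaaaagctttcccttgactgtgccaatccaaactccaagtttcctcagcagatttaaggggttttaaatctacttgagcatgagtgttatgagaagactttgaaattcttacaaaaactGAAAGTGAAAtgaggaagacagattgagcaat

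In the BST2 window 2 overlapping GAAACTGAAA copies begin at bases −130 and −124 from the start site, and a kB match, GGAGTGTCCC read on the opposite strand, begins at −226. The UBD window has GGGGATTTCC at −53, EBI3 has GGGGCCTTCC at −214, and TNIP3 has GGGGTTTCCC at −62, which matches on both strands. IFI27 holds 2 interferon-type matches, at −108 and −95. TNFSF13B holds 1, GAAAGTGAAA, after its start site, at base 19. Of the 15 higher genes under the naming rule 11 had a promoter entry, and 5 of these 11 held a kB match and 6 an interferon-type match. Of all 35116 promoters, 11.3% held a kB match and 3.57% an interferon-type match. Of the 3 genes that fell 1 held a kB match (ACTC1) and 0 the other. A match is a string of letters in this window, and binding was not measured.

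CCL5 had log2 intensities of 5.49, 6.06 and 5.55 on the TNF+IL1 arrays, against 1.83, 1.24 and 0.78 on the IL1 arrays, and 7.02, 7.10 and 4.92 on the TNF arrays, against 2 vehicle values of −0.47 and 0.79. The vehicle array of passage 13 had no value and was left out of its fit, and the other vehicle values lie near the array median, so no fold is given. All 6 arrays with TNFα lay above all 5 others, the lowest of them at 4.92 and the highest of the others at 1.83. The TNFα effect was 5.20 ± 0.50 (adjusted p = 0.00558), and the IL1β effect was 0.14 ± 0.50. EBI3, which encodes a subunit that IL-27 and IL-35 share, had 3.53, 3.07 and 2.98 with both cytokines, against 1.38, 0.98 and 1.25 with IL1β, and 3.77, 3.44 and 3.14 with TNFα alone, against −0.01, 0.71 and 1.15 with vehicle. Its effect was 2.41 ± 0.24 (adjusted p = 0.00515), with no overlap of the 6 and the 6. TNFSF13B, the B cell survival factor BAFF, had 1.84, 2.11 and 1.70 on the TNF+IL1 arrays, against 0.11, −0.20 and 0.03 on the IL1 arrays, and 2.42, 2.33 and 0.53 on the TNF arrays, against −0.08, −0.77 and −0.53 on the vehicle arrays. The TNF array of passage 28 was the lowest of the 6 with TNFα and still above every array without it. The effect was 2.06 ± 0.30 (adjusted p = 0.0459), and the adjusted p was 0.0631 with passage as a block. A dimmer second probe gave 2.42 ± 0.54 (adjusted p = 0.226).

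These 3 genes were the called members of larger families of secreted signals, most of whose members did not pass the test. Of 20 measured mononuclear-cell chemokines 1 rose (CCL5), and 3 lay apart on the higher side within both levels of IL1β. Of all genes, to be set beside this and the following lists, 0.0884% were called higher and 1.33% lay apart in this way. The median effect of these chemokines was 0.05 against 0.02 for all genes. CCL7, a monocyte chemokine, had an effect of 2.20 ± 0.34 (adjusted p = 0.061) and passed with the passage block (adjusted p = 0.0414), and its arrays with TNFα and without it overlapped across the levels of IL1β (2.58 to 6.17 against 0.82 to 4.46). Of 26 cytokines and colony-stimulating factors 1 rose (EBI3), and the median was 0.26. Of 31 other ligands and receptors of the TNF superfamily 1 rose (TNFSF13B), and the median was 0.07. TNFRSF11B (osteoprotegerin, the decoy receptor of RANKL) had the next largest effect, 1.40 ± 0.26, and TNFSF11 (RANKL itself) the lowest, −1.91 ± 0.45, and neither passed. The TNFSF11 probe was very dim, with a mean of −3.81 against 3.28 for TNFRSF11B, so its effect is uncertain. The transcript of TNF itself averaged 2.75 ± 0.06 with TNFα and 2.75 ± 0.14 without it (SD, n = 6 each).

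Interferon-stimulated antiviral genes, 43 of them measured, gave 4 of the 16 genes that rose, where 0.0884% of all genes were called higher. BST2 encodes tetherin, which holds budding virus particles on the cell surface. It had 3.23, 3.50 and 3.45 on the TNF+IL1 arrays, against 1.23, −0.08 and 0.26 on the IL1 arrays, and 2.99, 2.30 and 1.86 on the TNF arrays, against −0.23, −1.11 and −0.79 on the vehicle arrays. The lowest of the 6 arrays with TNFα (1.86) lay above the highest of the 6 without (1.23), and the effect was 3.00 ± 0.26 (adjusted p = 0.00491). IFI27, a mitochondrial protein and a sensitive reporter of interferon, had 6.13, 6.41 and 6.52 with both cytokines, against 4.41, 3.31 and 4.39 with IL1β, and 6.29, 6.23 and 5.59 with TNFα alone, against 1.64, 3.87 and 2.70 with vehicle. The vehicle arrays were the most spread of its 4 groups, and again no array with TNFα overlapped one without. Its effect was 2.81 ± 0.38 (adjusted p = 0.0296), its second probe gave 3.00 ± 0.29 (adjusted p = 0.00515), and with the passage block its adjusted p was 0.0765.

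MX1, a GTPase that restricts influenza and other viruses, had 4.31, 4.83 and 4.47 on the TNF+IL1 arrays, against 3.02, 1.79 and 2.33 on the IL1 arrays, and 4.56, 4.12 and 3.39 on the TNF arrays, against 2.94, 2.00 and 2.29 on the vehicle arrays. Its effect was 1.88 ± 0.28 (adjusted p = 0.0497), and the adjusted p was 0.0599 with the passage block. EPSTI1, an interferon-induced gene of macrophages and stroma, had 4.43, 4.03 and 4.18 with both cytokines, against 2.64, 1.84 and 2.82 with IL1β, and 3.53, 3.81 and 2.90 with TNFα alone, against 1.60, 1.67 and 1.77 with vehicle. The vehicle arrays were close to each other, and the effect was 1.76 ± 0.20 (adjusted p = 0.0109). In both genes the 6 arrays with TNFα lay above the 6 without it.

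The 39 other measured antiviral genes did not pass. Of all 43, 41 had an effect above 0 and the median was 0.60, against 0.02 and 9735 of 18106 for all genes. At an unadjusted p under 0.05, 28 were higher and 1 (PARP14, −0.30 ± 0.12) lower, where 4.06% and 3.13% of all genes were. IFI44L had 3.01, 3.35 and 2.96 with both cytokines, against 0.83, −0.70 and 0.21 with IL1β, and 2.50, 2.03 and 1.12 with TNFα alone, against 0.49, −2.00 and −0.51 with vehicle. Its effect of 2.77 ± 0.42 (adjusted p = 0.0536) missed the threshold, which it passed with the passage block (adjusted p = 0.0471). The same held for HERC6, a member of the ligase family of ISG15, at 1.62 ± 0.26 (adjusted p = 0.0625) (0.0325 with the block), whose dimmer second probe gave 0.10 ± 0.19 (adjusted p = 0.962), and for IFIH1, the RNA sensor MDA5, at 1.43 ± 0.23 (adjusted p = 0.0672) (0.0283 with the block), whose much dimmer second probe gave −1.33 ± 0.43 (adjusted p = 0.461). RSAD2, the antiviral enzyme viperin, gave 0.07 ± 0.19, IFIT2 0.31 ± 0.14 and XAF1 0.22 ± 0.22. The median level of the 43 on an array ran from 2.83 to 3.53 with TNFα and from 2.37 to 2.91 without it, and the groups overlapped there only by the TNF array of passage 28 and the vehicle array of passage 13.

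UBD and LAP3, both called, act in protein breakdown and peptide trimming. UBD encodes FAT10, a ubiquitin-like tag that sends proteins to the proteasome. It had 0.80, 0.91 and 0.95 on the TNF+IL1 arrays, against −1.30, −3.08 and −1.75 on the IL1 arrays, and 1.47, 0.17 and 0.37 on the TNF arrays, against −2.35, −1.92 and −2.26 on the vehicle arrays. It was dim without TNFα on all 6 arrays, the effect was 2.89 ± 0.30 (adjusted p = 0.00558), and the IL1β effect was 0.18 ± 0.30. LAP3, a leucine aminopeptidase, had 4.96, 5.15 and 5.06 with both cytokines, against 3.97, 4.01 and 3.63 with IL1β, and 5.11, 5.11 and 4.39 with TNFα alone, against 3.47, 2.95 and 3.32 with vehicle. Its effect was 1.40 ± 0.17 (adjusted p = 0.0196), and the 6 lay above the 6.

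Genes of MHC class I presentation, to which the immunoproteasome belongs, had 0 called members of 16 measured, but all 16 effects lay above 0, with a median of 0.57. At an unadjusted p under 0.05, 7 were higher, where 4.06% of all genes were. HLA-G, the class I molecule best known from trophoblast at the border of fetal and maternal tissue, ran from 7.92 to 8.19 on the 6 arrays with TNFα, against 7.42 to 7.68 on the 6 without. The 6 and the 6 did not overlap, yet the effect of 0.54 ± 0.11 (adjusted p = 0.152) did not pass. Class I genes are close in sequence, so a probe can take up signal from its relatives. TAP1, which carries peptides into the endoplasmic reticulum, gave 0.92 ± 0.31, PSME2 of the proteasome activator 0.90 ± 0.27, and PSMB8 of the immunoproteasome 0.18 ± 0.13. The median level of the 16 ran from 4.19 to 4.66 on arrays with TNFα and from 3.12 to 4.09 without it, with no overlap. MHC class II genes (11 measured) had a median effect of 0.10 and 0 called members.

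Among NF-kB subunits and feedback genes TNIP3 rose, and the other 24 measured did not pass, where 0.0884% of all genes were called higher. TNIP3 binds the deubiquitinase A20 and restrains NF-kB. It had 1.44, 1.93 and 1.70 on the TNF+IL1 arrays, against −0.12, 0.33 and −0.43 on the IL1 arrays, and 1.63, 1.44 and 0.21 on the TNF arrays, against −0.78, −1.61 and −2.02 on the vehicle arrays. The TNF array of passage 28 (0.21) fell within the range of the IL1 arrays, so the 6 and the 6 overlapped across levels of IL1β, and the effect was 2.16 ± 0.31 (adjusted p = 0.0413). TNFAIP3, which encodes A20, had 3.35, 3.35 and 3.28 with both cytokines, against 2.07, 1.65 and 0.77 with IL1β, and 3.19, 1.98 and 1.59 with TNFα alone, against 0.79, −0.30 and 0.01 with vehicle. Its effect was 1.96 ± 0.31 (adjusted p = 0.0625), and the adjusted p was 0.0295 with the passage block.

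All 25 effects in this list lay above 0, with a median of 0.71, and 17 were higher at an unadjusted p under 0.05, where 53.8% of all genes lay above 0, their median was 0.02 and 4.06% were higher. The signal adaptor TRAF1 gave 1.53 ± 0.36 (adjusted p = 0.256), the subunit RELB 1.22 ± 0.32 (adjusted p = 0.34) and the subunit NFKB1 1.06 ± 0.32 (adjusted p = 0.431), while RELA, whose protein NF-kB mostly uses, gave 0.34 ± 0.31. NFKB1 was lowest on 1 of the arrays that lay apart, the vehicle array of passage 15 (3.48, against 4.97 to 6.41 on the other 11). Of 21 measured genes of TNF receptors and proximal signalling 0 were called and 0 had an unadjusted p under 0.05, and the median was 0.11. This list also holds genes outside the path to NF-kB, such as kinases of the JNK and p38 branches, FADD and ADAM17. The receptors themselves gave 0.05 ± 0.47 (TNFRSF1A, TNFR1) and 0.65 ± 0.32 (TNFRSF1B, TNFR2). NFKBIA had no probe that could represent it.

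The remaining genes that rose belong to no common list. ABI3BP, a secreted matrix protein, had 5.02, 4.30 and 4.14 on the TNF+IL1 arrays, against 2.16, 0.73 and 2.48 on the IL1 arrays, and 4.94, 4.26 and 4.53 on the TNF arrays, against 2.46, 0.91 and 2.08 on the vehicle arrays. The effect was 2.73 ± 0.35 (adjusted p = 0.0215), that of IL1β was −0.06 ± 0.35, and ABI3BP was the only called gene with a TNFα and an IL1β effect of opposite sign. Its other 3 probes gave 1.83 ± 0.24 (adjusted p = 0.0254), 1.60 ± 0.28 (adjusted p = 0.0887) and 1.11 ± 0.33 (adjusted p = 0.415). ALKAL2, a ligand of the receptor kinase ALK, had 0.72, 1.06 and 0.95 with both cytokines, against −0.18, −0.84 and −0.54 with IL1β, and 1.05, 0.95 and 0.28 with TNFα alone, against −2.02, −2.50 and −2.19 with vehicle. Its effect was 2.21 ± 0.29 (adjusted p = 0.0283), with an adjusted p of 0.0758 under the passage block.

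ICAM2, a ligand of the leukocyte integrin LFA-1, had 1.01, 0.31 and 0.36 on the TNF+IL1 arrays, against −0.75, −0.55 and −0.63 on the IL1 arrays, and 0.67, 0.50 and 0.90 on the TNF arrays, against −1.60, −1.29 and −0.67 on the vehicle arrays. The effect was 1.54 ± 0.21 (adjusted p = 0.0328) (0.0772 with the block). ICAM2 was the only called member of 20 adhesion molecules, where 0.0884% of all genes were called higher. GBP1P1, a pseudogene of the guanylate-binding protein GBP1, had 3.06, 2.89 and 2.78 with both cytokines, against 1.26, −0.30 and 0.61 with IL1β, and 1.50, 1.00 and 0.70 with TNFα alone, against −1.72, −2.11 and −1.36 with vehicle. Its effect was 2.59 ± 0.26 (adjusted p = 0.00515) and that of IL1β 2.05 ± 0.26, so it stood highest with both, and the TNF arrays overlapped the IL1 arrays. Since a pseudogene resembles its parent its probe may read both, its own second probe gave 0.88 ± 0.26 (adjusted p = 0.423), and the probe listed for GBP1 gave 0.55 ± 0.19. TCIM, a small regulator of transcription, had 3.62, 3.36 and 3.92 on the TNF+IL1 arrays, against 2.39, 1.97 and 2.49 on the IL1 arrays, and 2.91, 2.77 and 1.64 on the TNF arrays, against 0.43, 0.35 and 0.20 on the vehicle arrays. Its effect was 1.73 ± 0.25 (adjusted p = 0.0416) (0.0922 with the block), beside an IL1β effect of 1.57 ± 0.25, and its TNF and IL1 arrays overlapped. WTAP, a subunit of the enzyme that writes m6A on RNA, is named because it was the called gene left over by the rule on 15 increases. It had 6.18, 6.09 and 6.08 with both cytokines, against 5.47, 5.11 and 5.18 with IL1β, and 5.68, 5.66 and 5.34 with TNFα alone, against 4.31, 4.23 and 4.39 with vehicle. Its effect was the smallest among the called, 1.06 ± 0.13 (adjusted p = 0.0179), and its second probe gave 0.33 ± 0.24 (adjusted p = 0.827).

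The 3 genes that fell serve different roles. MEST, a gene expressed from the paternal copy in mesoderm, had −0.37, −0.56 and 0.47 on the TNF+IL1 arrays, against 2.32, 2.37 and 2.18 on the IL1 arrays, and 0.58, −0.13 and 1.04 on the TNF arrays, against 3.74, 2.95 and 3.53 on the vehicle arrays. All 6 arrays with TNFα lay below all 6 without, and the effect was −2.68 ± 0.25 (adjusted p = 0.00491). CRABP2, which hands retinoic acid to its nuclear receptors, had 1.94, 1.94 and 2.19 with both cytokines, against 4.09, 3.99 and 3.93 with IL1β, and 2.11, 2.20 and 3.27 with TNFα alone, against 5.16, 5.10 and 5.20 with vehicle. Both groups without TNFα were tight, the groups did not overlap, and the effect was −2.30 ± 0.21 (adjusted p = 0.00491). ACTC1, cardiac alpha-actin, had 3.58, 3.55 and 3.90 on the TNF+IL1 arrays, against 5.52, 4.70 and 5.99 on the IL1 arrays, and 4.28, 4.79 and 4.90 on the TNF arrays, against 6.26, 6.92 and 6.38 on the vehicle arrays. The effect was −1.80 ± 0.22 (adjusted p = 0.0196), and the 6 and the 6 overlapped by the IL1 array of passage 15 at 4.70.

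Each was the only called gene of its list, where 0.0166% of all genes were called lower. Of 17 imprinted genes the median effect was −0.02, and the next lowest, SNRPN, gave −0.86 ± 0.17. Of 21 genes of the retinoic acid pathway the median was 0.01, and ALDH1A3, which makes retinoic acid, lay at the other end with 2.46 ± 0.68. Of 17 contractile genes the median was −0.07, and the smooth muscle actins ACTA2 and ACTG2 gave −0.19 ± 0.39 and −0.29 ± 0.41. The IL1β effects of the 3 genes were −0.88 ± 0.25 (MEST), −0.83 ± 0.21 (CRABP2) and −1.05 ± 0.22 (ACTC1), in a fit that called 1 of 18106 genes for IL1β.

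Whether TNFα acted alike in the presence and the absence of IL1β was asked by the interaction, which was called for 0 probes. At an unadjusted p under 0.05 it took in 1927 probes (3.59%) and 522 genes (2.88%), and the lowest adjusted p was 0.843. The interaction is estimated less precisely than the main effect (for BST2 an SE of 0.55 against 0.26). The lack of calls therefore does not show that TNFα acted alike. In the 19 called genes both simple effects had the same sign. Their lack of overlap at both levels of IL1β sets this, so it does not bear on the question. In 3 (UBD, MX1 and EPSTI1) the effect was larger with IL1β. ALKAL2 alone had an unadjusted interaction p under 0.05, with a TNFα effect of 1.43 ± 0.26 with IL1β and 2.99 ± 0.26 without it, a difference of −1.56 ± 0.37 (unadjusted p = 0.00168).

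**Figure D2:**
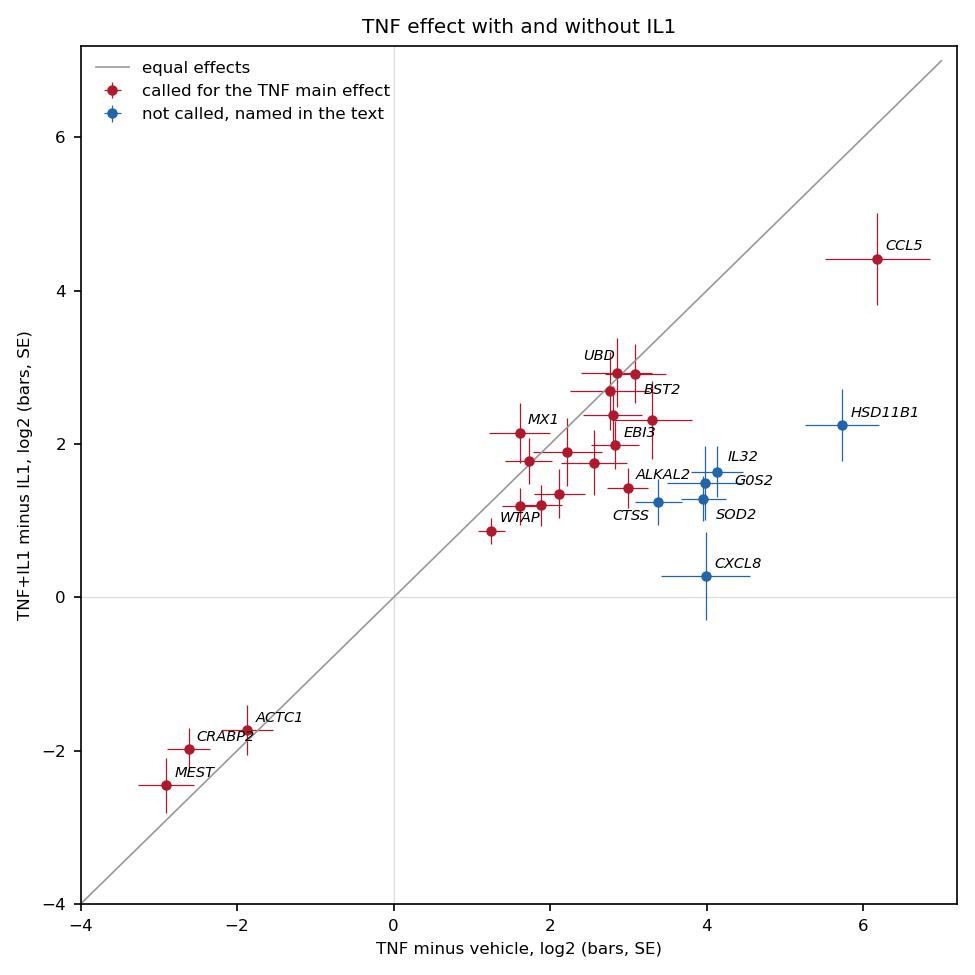
TNFα effect with IL1β (TNF+IL1 minus IL1, y axis) against the effect without it (TNF minus vehicle, x axis), both log2 with SE bars, for the 19 called genes and for 6 genes not called by their brightest probe. These 6 were picked for a smaller effect beside IL1β. The called genes have both effects on the same side of 0, which their lack of overlap at both levels of IL1β sets. CXCL8 lies at 0.28 on the y axis and 3.99 on the x axis.

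The additive model counts a dependence on IL1β as residual spread. Several of the genes with the largest rises over vehicle were not called by it, and why was not tested. The 6 shown were picked because they rose over vehicle, with a smaller TNFα effect beside IL1β, without being called. That pattern is therefore no result about them. They were named after their values were seen except HSD11B1, CTSS, G0S2 and SOD2. Other uncalled genes also rose over vehicle but without a smaller effect beside IL1β, such as IFI44L (2.55 ± 0.61 without IL1β and 3.00 ± 0.61 with it). The interaction passed for none of them. Its adjusted p was 0.843 for HSD11B1, SOD2, IL32 and CTSS, and 0.914 for CXCL8. HSD11B1, which turns inactive cortisone into cortisol in the cell, had 6.30, 6.76 and 6.72 on the TNF+IL1 arrays, against 5.13, 4.03 and 3.87 on the IL1 arrays, and 5.65, 5.51 and 4.43 on the TNF arrays, against 0.00, −0.21 and −1.39 on the vehicle arrays. The TNFα effect was 2.25 ± 0.47 with IL1β and 5.73 ± 0.47 without it, and the difference of −3.48 ± 0.67 had an unadjusted p of 0.000384. The main effect was 3.99 ± 0.61 (adjusted p = 0.0561), its second probe gave 3.86 ± 0.55 (adjusted p = 0.0413), and with 1 mean per group the adjusted p of the averaged effect was 0.00245.

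SOD2, the mitochondrial superoxide dismutase, had 6.83, 6.82 and 7.02 with both cytokines, against 5.88, 5.25 and 5.66 with IL1β, and 6.18, 6.47 and 5.57 with TNFα alone, against 1.70, 2.47 and 2.17 with vehicle. Its main effect was 2.62 ± 0.44 (adjusted p = 0.0828) (0.00245 with 1 mean per group), from 1.29 ± 0.29 with IL1β and 3.96 ± 0.29 without, while a dimmer second probe gave 0.19 ± 0.12 (adjusted p = 0.798). IL32, a cytokine of human stroma and lymphocytes, had 6.97, 6.66 and 6.90 on the TNF+IL1 arrays, against 5.49, 4.54 and 5.59 on the IL1 arrays, and 7.58, 7.62 and 7.59 on the TNF arrays, against 2.84, 3.62 and 3.92 on the vehicle arrays. It stood higher with TNFα alone than with both cytokines on every array, unlike HSD11B1 and SOD2, and its main effect was 2.89 ± 0.43 (adjusted p = 0.0536) (0.00245 with 1 mean per group).

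CTSS, a lysosomal protease that prepares class II molecules, had 4.49, 4.94 and 4.90 with both cytokines, against 3.72, 3.67 and 3.17 with IL1β, and 5.13, 4.92 and 4.08 with TNFα alone, against 1.60, 1.11 and 1.27 with vehicle. Its main effect was 2.32 ± 0.38 (adjusted p = 0.0674) (0.00348 with 1 mean per group). G0S2, an inhibitor of the lipase that breaks down lipid droplets, had 5.75, 6.40 and 6.27 on the TNF+IL1 arrays, against 4.73, 5.16 and 4.06 on the IL1 arrays, and 5.81, 6.44 and 4.69 on the TNF arrays, against 0.97, 2.13 and 1.89 on the vehicle arrays, with a main effect of 2.74 ± 0.49 (adjusted p = 0.107) (0.0201 with 1 mean per group). CXCL8, the neutrophil chemokine interleukin 8, had 9.36, 9.33 and 9.48 with both cytokines, against 9.13, 9.22 and 8.96 with IL1β, and 9.20, 9.49 and 6.82 with TNFα alone, against 4.81, 4.63 and 4.11 with vehicle. Its TNFα effect was 0.28 ± 0.57 with IL1β and 3.99 ± 0.57 without it, so its main effect of 2.14 ± 0.67 (adjusted p = 0.453) describes neither. The TNF array of passage 28, at 6.82, stood well below the other TNF arrays for this gene.

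**Figure D3:**
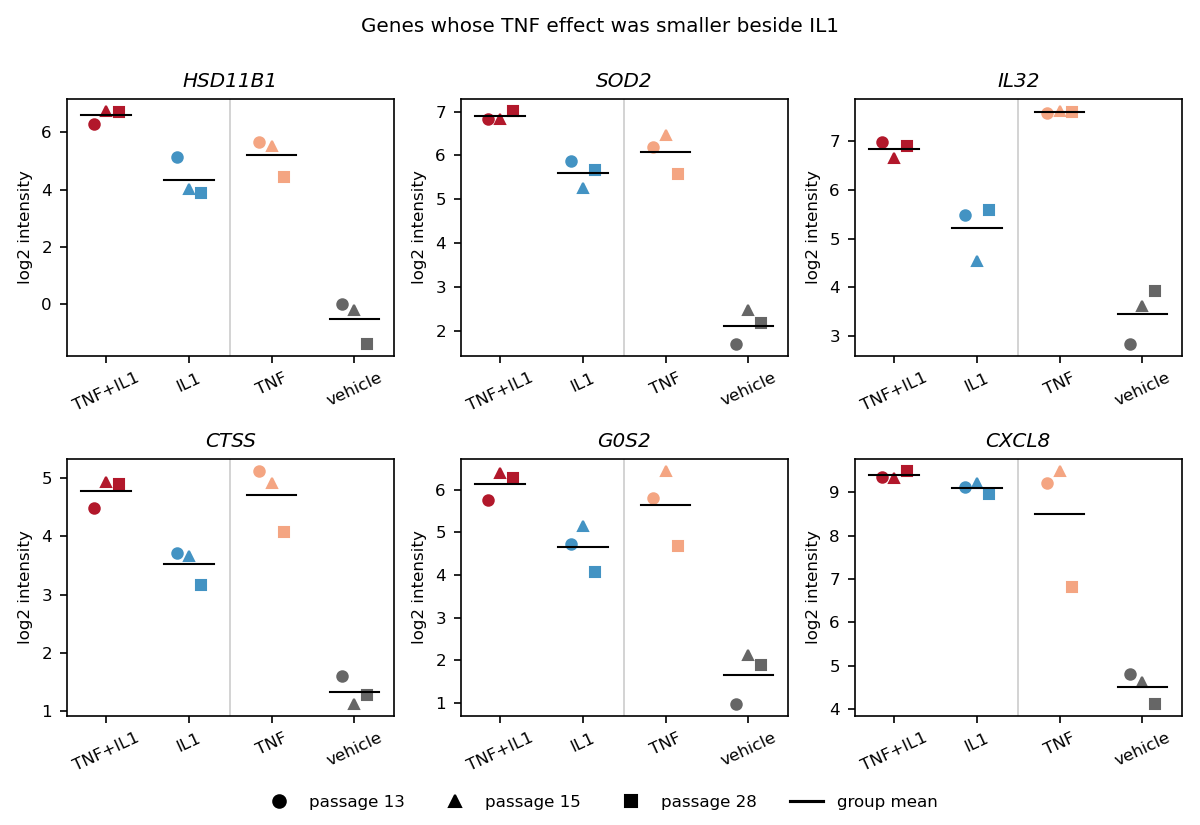
Log2 intensity (y axis) of 6 genes that were not called for TNFα by their brightest probe, on each of the 12 arrays by group (x axis). Marker shapes are passages and bars are group means. In each panel the vehicle arrays are lowest, and the gap between TNF+IL1 and IL1 is smaller than that between TNF and vehicle. The genes were picked for this pattern, so it is no result.

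The difference between the TNFα and IL1β effects was tested in the same model and was called for 0 probes, with 2763 probes (5.15%) and 841 genes (4.64%) at an unadjusted p under 0.05 and a lowest adjusted p of 0.175. The IL1β effect itself was called for 1 probe (0.00186%) and 1 gene (0.00552%), and 6309 probes (11.8%) had an unadjusted p under 0.05. In all 19 called genes the TNFα effect was larger in size than the IL1β effect, and in 16 the difference had an unadjusted p under 0.05. Calling them on TNFα in part sets both counts. The difference is described for 2 of them. The difference was widest for CCL5, 5.06 ± 0.68 (adjusted p = 0.355), and near 0 for TCIM, 0.16 ± 0.35. Of 6 measured neutrophil-attracting CXC chemokines 0 were called for TNFα or for the difference, the median TNFα effect was 0.94 and the median IL1β effect 1.75. CXCL2 had 6.47, 6.73 and 6.86 on the TNF+IL1 arrays, against 5.99, 5.33 and 5.31 on the IL1 arrays, and 2.99, 2.31 and −0.01 on the TNF arrays, against 0.59, 0.88 and −0.98 on the vehicle arrays. Its TNFα effect was 1.37 ± 0.48 (adjusted p = 0.521) and its IL1β effect 5.15 ± 0.48, a difference of −3.78 ± 0.68 with an adjusted p of 0.851. CXCL2 and CXCL3 are close in sequence, so their probes may share signal, and CXCL3 gave 1.05 ± 0.27 (adjusted p = 0.32).

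**Figure D4:**
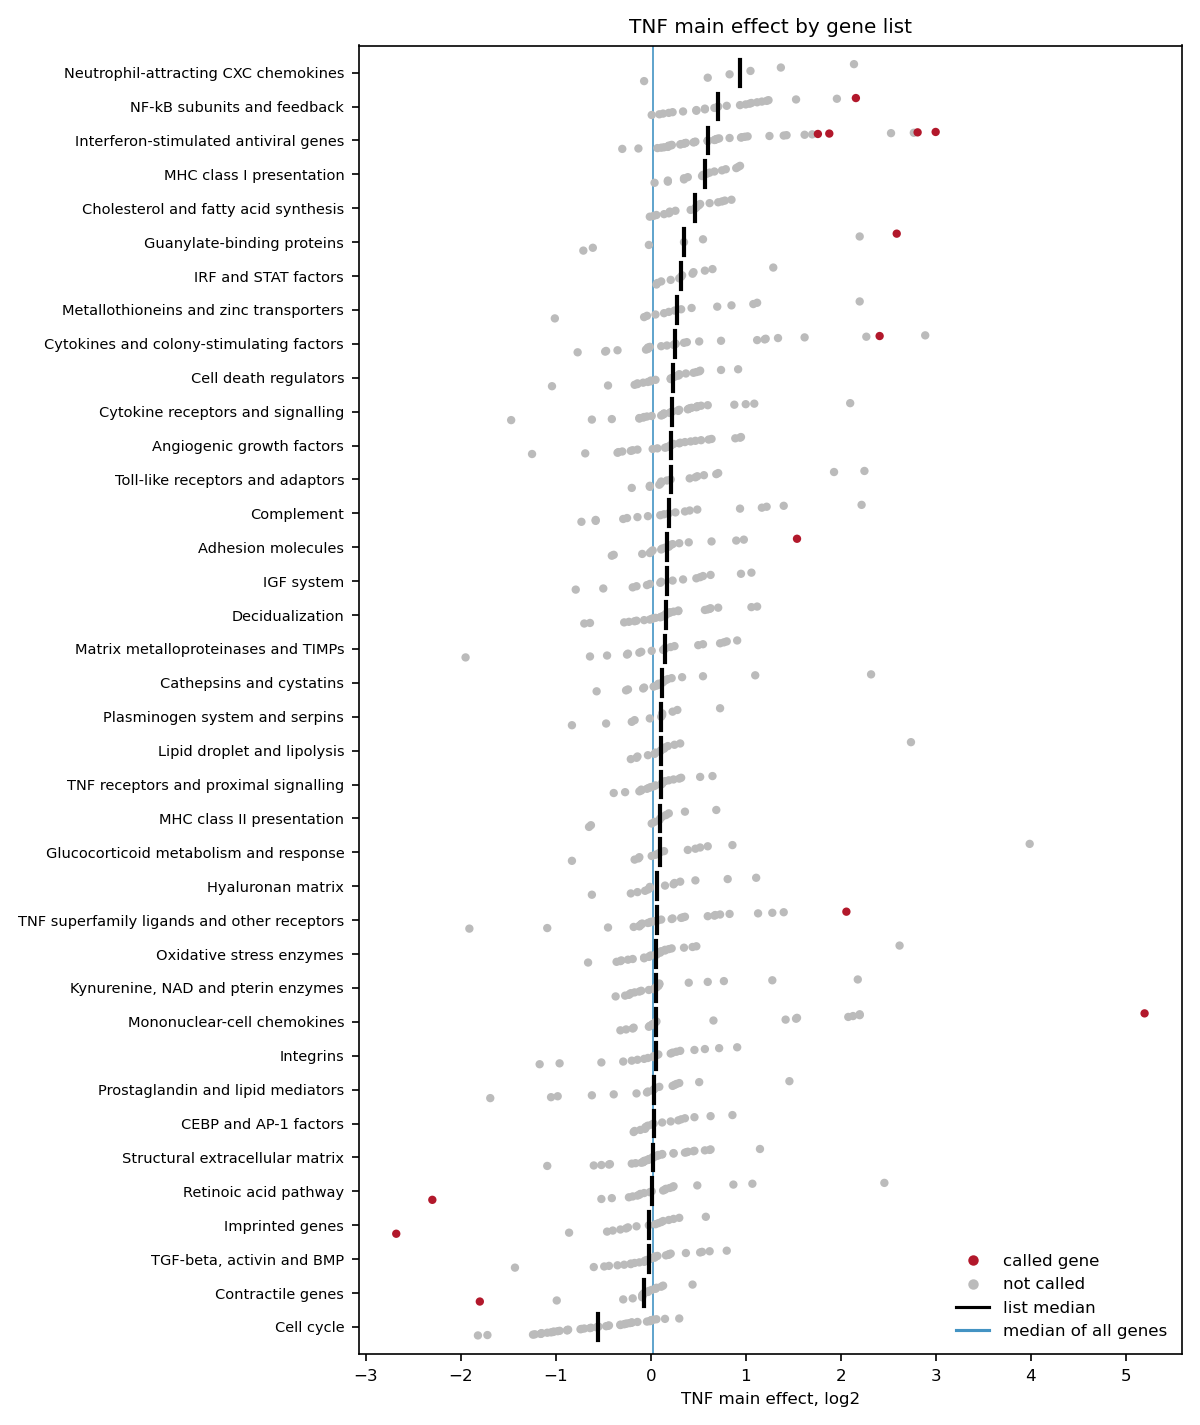
TNFα main effect (log2, x axis) of every measured gene in 38 lists (rows), with the list median as a black bar and the median of all genes, 0.02, as a blue line. Red points are called genes. Antiviral, NF-kB and class I genes lie mostly right of the line and cell cycle genes mostly left of it.

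Other lists held no called gene. Cell cycle genes had the lowest median, −0.56 over 45, and 39 lay below 0. At an unadjusted p under 0.05, 13 were lower and 1 higher, where 3.13% and 4.06% of all genes were. CDC45, a helicase subunit of DNA replication, gave −1.82 ± 0.53 (adjusted p = 0.414), the mitotic kinesin KIF20A −1.72 ± 0.56 and the kinase CDK1 −1.05 ± 0.43, while MKI67 gave 0.03 ± 0.19. The CDC45 probe was dim, with a mean of −2.75 and its lowest value, −6.39, on the TNF+IL1 array of passage 28. Within passages 13, 15 and 28 its effect was −0.71, −1.78 and −2.98. The median level of the 45 ran from 0.85 to 1.91 with TNFα and from 0.89 to 2.51 without it. Among the arrays that lay apart, the vehicle array of passage 15 at 0.96 and the IL1 array of passage 28 at 0.89 were the lowest of those without TNFα, and without the 3 arrays the median effect was −0.90. The IL1β effect had a median of −0.57 in the same list. Cholesterol and fatty acid synthesis had a median of 0.47 over 21 genes, 20 of them above 0 and 3 higher at an unadjusted p under 0.05, where 4.06% of all genes were. INSIG1, which holds back sterol synthesis and is itself a sterol target, gave 0.75 ± 0.22 (adjusted p = 0.415). Within passages 13, 15 and 28 the list median was 0.40, 0.69 and 0.12.

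IRF and STAT factors, through which interferon signals, had 12 of 12 effects above 0 and a median of 0.32. IRF7, the master regulator of type I interferon, had 3.82, 4.02 and 3.65 with both cytokines, against 2.87, 2.76 and 2.02 with IL1β, and 3.95, 3.15 and 3.01 with TNFα alone, against 2.48, 1.48 and 2.23 with vehicle, and its effect was 1.29 ± 0.23 (adjusted p = 0.109). The interferon receptor chain IFNAR2 gave 1.00 ± 0.17 (adjusted p = 0.082), and the growth factor FGF2 0.94 ± 0.16 (adjusted p = 0.082); for both the arrays lay apart within each level of IL1β. PTGES, the prostaglandin E synthase, gave 1.46 ± 0.26 (adjusted p = 0.105), and KYNU of tryptophan breakdown 2.18 ± 0.40 (adjusted p = 0.11). The decidualization list (31 measured) had a median of 0.16, with PGR, the progesterone receptor, at −0.70 ± 0.23 (adjusted p = 0.485). Structural matrix genes (38 measured) had a median of 0.02, with lumican (LUM) at 0.39 ± 0.14 (adjusted p = 0.531).

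Stability differed among the 19 genes. All kept their sign within each of the 3 passages and under each alternative tried. The sign within passages and with arrays left out was set by the lack of overlap at both levels of IL1β and adds no support. CCL5, BST2, UBD, GBP1P1, EBI3, MEST and CRABP2 remained called whichever 1 array was left out. The other 12 were lost with at least 1 array left out: 12 without the TNF+IL1 array of passage 28 or the TNF array of passage 13, 11 without the TNF+IL1 array of passage 13 or 15, the TNF array of passage 15 or the vehicle array of passage 28, 9 without the IL1 array of passage 28, 8 without that of passage 15, 6 without the vehicle array of passage 15, 5 without the IL1 array of passage 13, and 4 without the TNF array of passage 28 or the vehicle array of passage 13. Their highest adjusted p in these fits was 0.143. EPSTI1 remained called in 9 of the 12 fits, and TNIP3, TNFSF13B, TCIM and ICAM2 in 1.

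Without the 3 arrays that lay apart 0 probes were called, with 5561 at an unadjusted p under 0.05, and the adjusted p of the 19 ran from 0.145 to 0.279. Their effects stayed close in size: 4.53 for CCL5, 2.87 for BST2, 3.15 for UBD, 2.41 for EBI3, 3.08 for IFI27, 2.78 for ABI3BP, 1.92 for TNIP3, −2.65 for MEST, −2.23 for CRABP2 and −1.57 for ACTC1. The medians were 0.49 for antiviral genes, 0.61 for NF-kB genes and 0.52 for class I genes. Leaving out all 4 arrays of a passage left 1 called probe without passage 13, 1 without passage 15 and 0 without passage 28. Fits on fewer arrays have less power, and whether this ended the calls was not tested. The vehicle array of passage 13, at −84.8 on the first principal component, was kept in the fit without the 3.

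**Figure D5:**
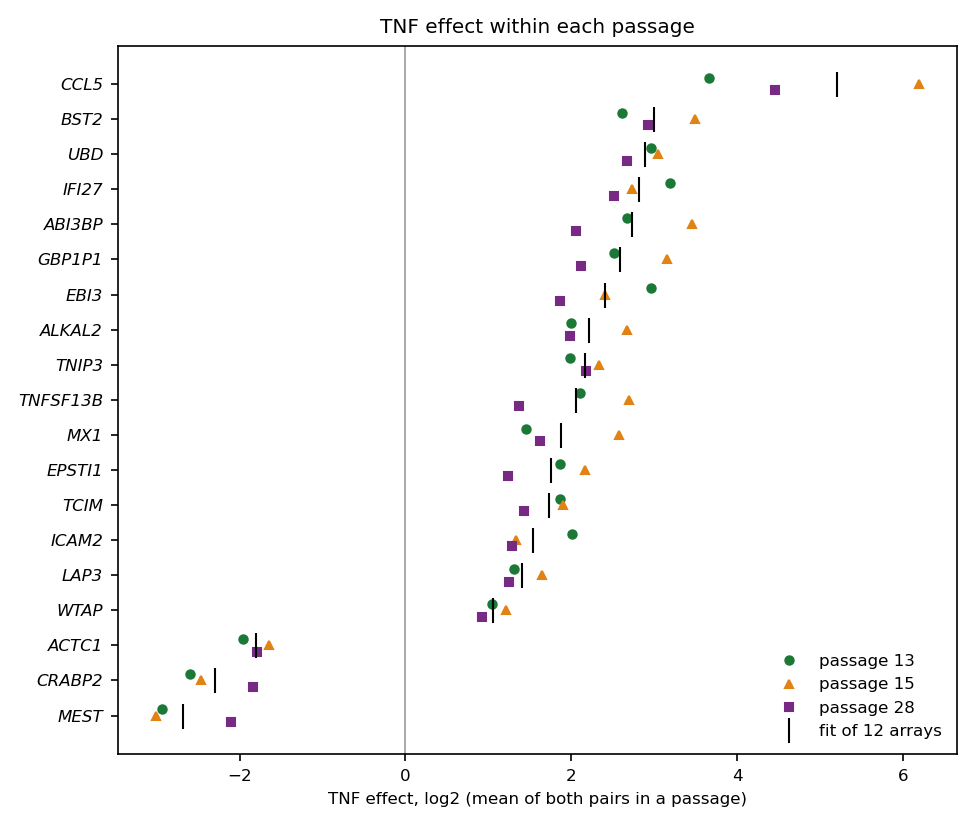
TNFα effect (log2, x axis) of the 19 called genes (rows) within each passage, as the mean of TNF+IL1 minus IL1 and TNF minus vehicle, with the fitted effect as a black tick. Every gene has 3 values on the same side of 0, which the lack of overlap at both levels of IL1β sets. CCL5 in passage 13 rests on TNF+IL1 minus IL1 only.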

How the data were processed

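RNA of 12 T-HESC cultures was measured on 12 single-colour CodeLink arrays, and the authors deposited 1 linear intensity per probe and array. How spots were background-corrected and normalised is not given in the sources used here; array medians ran from 1.032 to 1.068. Values coded as missing (0.716%) and values at or below 0 (1.10%) were left out, the rest were taken to log2 with no further scaling, and a probe needed a value on 2 or more arrays of each group (53671 of 54359 probes). Leaving out values at or below 0 can raise the mean of a dim probe. Of all probes 23472 had 1 gene in the platform annotation, 905 several and 29982 none.

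Each probe was fitted in limma 3.58.1 (R 4.3.3) with TNFα and IL1β as factors and 9 residual degrees of freedom. Benjamini-Hochberg adjustment ran over all probes, and called means an adjusted p under 0.05. The interaction, the simple effects and the difference between TNFα and IL1β effects were fitted beside it, and the fit was tested on simulated data. Named genes are up to 15 that rose most and 10 that fell most, among called genes with no overlap of arrays at either level of IL1β, up to 3 called members (or the lowest p) of each of 38 lists, and a fixed set of controls. Other list members were chosen after their values were seen. The lists themselves were chosen with earlier results of these data known. Passage is shared by label across groups and so pairs the arrays. Deviations from group means correlated by 0.00712 on average over 18 same-passage pairs (−0.196 to 0.31). The mean of −0.00291 over 36 others is no separate comparison, since the deviations cancel within a group. Promoters are RefSeq, GRCh38.p14, and the kB motif has 10 letters with degenerate positions. Alternatives were other scalings, filters, variance models, a passage block, 1 mean per group, and leaving out arrays or passages.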

Additional observations from a re-analysis of the deposited data

How the results depend on the processing

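The 31 probes called for TNFα became 48 with an offset added before the log, 86 without dim probes, 54 with 1 probe per gene, 98 with a trended robust variance, 124 with array weights (94 higher and 30 lower), and 0 without the 3 arrays that lay apart (5561 at an unadjusted p under 0.05 in limma). Leaving out 1 array or a whole passage gave 0 to 36, with 2808 at an unadjusted p under 0.05 without passage 28, where 0 were called. Quantile scaling gave 44, with all 31 shared, median centring 28, and 1 mean per group 43. The passage block gave 30, of which 22 were shared. It ended 6 of the 19 gene calls, for IFI27, ALKAL2, TNFSF13B, MX1, TCIM and ICAM2, and 1 mean per group ended TNFSF13B (adjusted p = 0.0606) and MX1 (adjusted p = 0.0573). Of 493 values of the 19 genes under the alternatives, 304 stayed called, 189 missed the threshold and 0 changed sign; the cause was not tested. The interaction was called for 1 probe without the TNF array of passage 28 and for 2 without the TNF+IL1 array of passage 15, and for 0 in all other fits run. The difference between TNFα and IL1β effects was called for 1 probe with quantile scaling and for 0 in the others. Dim probes near background limit what the arrays show.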
